A study of Mus musculus with 22 samples.

Results

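Interferon regulatory factors (IRFs) are a family of transcription factors, and 8 of them were followed here: Irf1, Irf2, Irf3, Irf4, Irf5, Irf7, Irf8 and Irf9. The 8 genes were taken by symbol from a table of 34047 genes, and their values did not enter the choice. Bulk RNA-seq gave 16 libraries and ATAC-seq, an assay of open chromatin, gave 6. All mice were Tbx21RFP-cre animals of 6 to 10 weeks, male and female and not treated, in which the Tbx21 locus (T-bet) drives a red fluorescent protein. No library came from mice without that allele. Conventional dendritic cells were sorted as cDC1s (XCR1+), T-bet- cDC2s (RFP-) and T-bet+ cDC2s (RFP+). Spleen gave 3 RNA libraries of each subset, and mesenteric lymph nodes (MLN) gave 3 of cDC1s and 2 of each cDC2 subset. Each RNA library pooled the cells of 2 mice. ATAC-seq was made from pooled spleen, with 2 libraries of each subset.

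IRF proteins share a DNA-binding domain that reads GAAA repeats. IRF3, IRF5 and IRF7 are switched on by kinases downstream of nucleic acid sensors and drive interferon genes. IRF9 is part of the complex that carries the signal of the type I interferon receptor to DNA, and IRF1 and IRF2 act on many of the same elements, IRF1 mostly as an activator and IRF2 often as a repressor. IRF4 and IRF8 bind DNA weakly on their own and do so together with PU.1 or with AP-1 proteins such as BATF. In dendritic cells, IRF8 is required for cDC1s and IRF4 is known for its part in cDC2s.

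The ATAC counts are for windows of 150 bases, and 4 windows that carry the comparisons of chromatin are shown here so that their letters can be read beside their values. They are given as 150 bases of the forward strand of mm10 (GRCm38.p6), with an AP-1 site (TGANTCA) and a PU.1 core (GAGGAAG) in capitals. The window 32340 bases downstream of the Irf8 start had the highest mean signal at that locus and was most open in cDC1s. The window 20151 bases upstream of Irf8 separated the 2 cDC2 subsets. The window 20199 bases downstream of the Irf4 start was more open in cDC2s, and the one 41571 bases into Irf2, in an intron, was more open in cDC1s. All 4 windows were first picked after their values were seen. That of Irf4 follows no other rule, and the others are called windows of largest change at their locus in 1 comparison. Those of Irf8 count at that locus only with a gene model left out, a step described below.
Irf8 downstream, chr8:120768623-120768772: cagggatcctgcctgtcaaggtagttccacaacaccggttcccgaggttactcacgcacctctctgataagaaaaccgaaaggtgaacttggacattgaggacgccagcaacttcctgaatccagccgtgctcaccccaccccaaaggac
Irf8 upstream, chr8:120716132-120716281: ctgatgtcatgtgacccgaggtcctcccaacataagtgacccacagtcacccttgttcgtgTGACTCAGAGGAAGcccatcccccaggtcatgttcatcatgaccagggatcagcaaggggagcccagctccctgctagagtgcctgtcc
Irf4 downstream, chr13:30769350-30769499: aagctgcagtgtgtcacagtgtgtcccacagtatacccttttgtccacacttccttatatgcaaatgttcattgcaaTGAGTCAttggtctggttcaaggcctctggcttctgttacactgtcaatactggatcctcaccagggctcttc
Irf2 intron, chr8:46781228-46781377: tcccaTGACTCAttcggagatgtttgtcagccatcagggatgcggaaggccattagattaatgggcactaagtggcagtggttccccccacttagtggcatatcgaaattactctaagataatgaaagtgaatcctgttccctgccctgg

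The RNA libraries held 20993220 to 29006549 reads on genes, and the ATAC libraries 7270164 to 10081555 reads in windows. Levels are given as CPM, reads scaled to the size of the library, on one scale over the 16 RNA libraries and another over the 6 ATAC libraries. The labels were checked against marker genes. The summed level of 6 cDC1 markers was 1792 to 6275 CPM in cDC1s and 229 to 628 CPM in cDC2s, that of 6 cDC2 markers 404 to 3006 CPM in cDC2s and 3.06 to 16.7 CPM in cDC1s, and Tbx21 was at 2.93 to 24.9 CPM in T-bet+ cDC2s against 0.145 to 2.38 CPM in all other libraries. Some RNA libraries stood apart within their groups. Levels correlated with transcript GC content in opposite directions among spleen libraries, with T-bet- replicates 1 and 2 and cDC1 replicate 3 on the lower side. In MLN, cDC1 replicate 1 and T-bet+ replicate 1 held 3628 and 2718 CPM of 6 markers of mature migratory dendritic cells (Ccr7, Fscn1, Il4i1, Cacnb3, Nudt17 and Socs2), against 10791 to 14368 CPM in the other MLN libraries.

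All 8 genes were detected in every library. Per kilobase of exon, Irf8 was the most abundant member in spleen cDC1s, at 500.5 ± 103 CPM per kb (SD, n = 3), ahead of Irf5 at 287 ± 16.8. Irf1 (80.7 ± 27.4), Irf7 (46.6 ± 6.10), Irf9 (28.4 ± 5.59), Irf3 (22.0 ± 3.51) and Irf2 (12.7 ± 3.84) followed, and Irf4 was last at 2.30 ± 1.04 CPM per kb. In spleen T-bet+ cDC2s the order was nearly turned round at its ends. There Irf5 led at 192 ± 5.65 CPM per kb, Irf4 followed at 69.1 ± 18.9 and Irf8 was last at 8.98 ± 1.82. Irf4 did not differ beyond its spread from Irf1, at 66.2 ± 7.35 CPM per kb in the same cells. In spleen T-bet- cDC2s, Irf8 (40.4 ± 21.2 CPM per kb) and Irf4 (23.7 ± 6.89) both lay between these extremes. Irf8 there did not differ beyond its spread from Irf7 at 52.7 ± 9.55 or from Irf9 at 36.3 ± 1.36 CPM per kb.

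**Figure D1:**
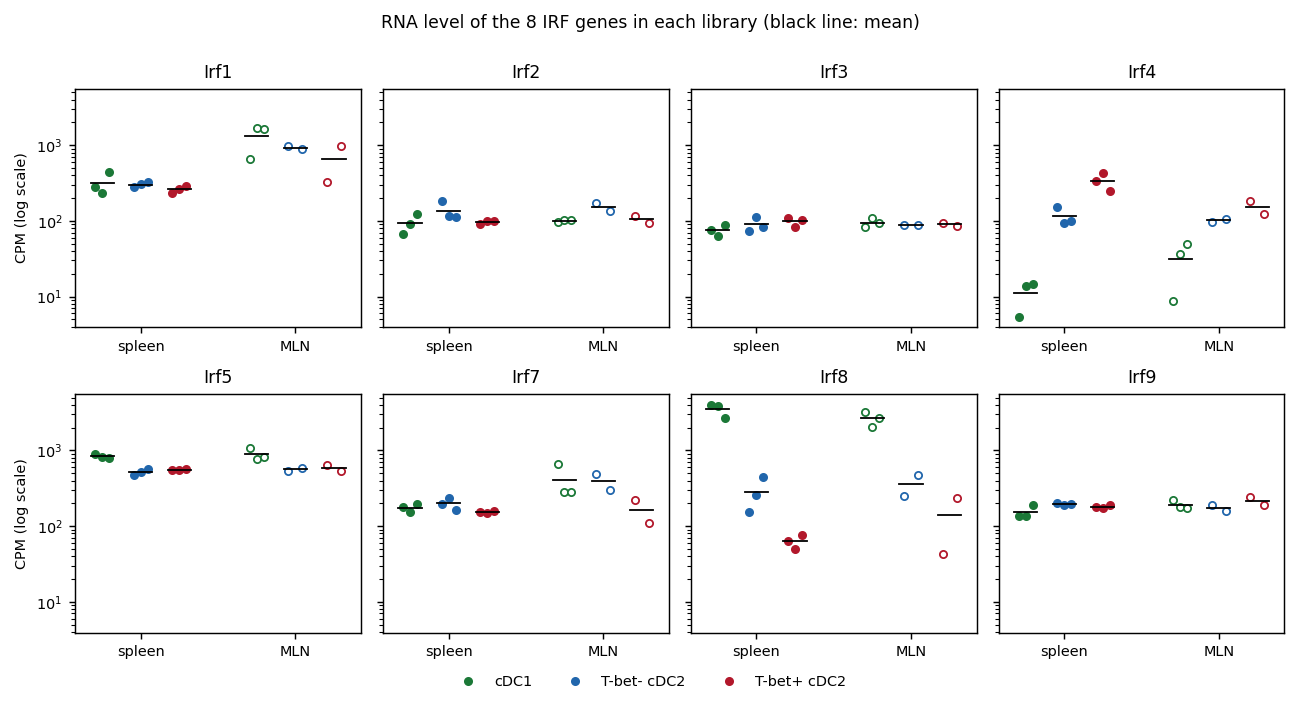
RNA level of each IRF gene as CPM on a log axis, 1 point per library (filled, spleen; open, MLN; green, cDC1; blue, T-bet- cDC2; red, T-bet+ cDC2), with the group mean as a line. In spleen, Irf8 was highest in cDC1s (mean 3531 CPM) and Irf4 in T-bet+ cDC2s (mean 339 CPM), while Irf2, Irf3 and Irf9 lay between 63.2 and 239 CPM in every library.

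The comparison of T-bet+ with T-bet- cDC2s asked which factors differ between the subsets of cDC2. In spleen, Irf8 stood at 153, 255 and 448 CPM in T-bet- cDC2s and at 63.3, 50.6 and 76.2 CPM in T-bet+ cDC2s. All 3 T-bet+ libraries were below all 3 T-bet- libraries. Irf8 fell by 2.17 ± 0.37 on the log2 scale (SE, 3 libraries in each group) with an adjusted p of 0.00979, and was the 1 member of 8 called, against 5.38% of all genes tested (1.95% higher and 3.44% lower). Without T-bet+ replicate 1 the adjusted p was 0.0521 and without T-bet+ replicate 2 it was 0.0572, with log2 fold changes of -2.17 and -2.03. With a term for the GC-related class the log2 fold change was -2.62 (adjusted p = 0.000485). The T-bet- library of the higher class, replicate 3, was the 1 with 448 CPM.

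Summed levels of markers of some other cells differed between the cDC2 subsets in the direction of Irf8. The summed level of 6 plasmacytoid dendritic cell markers was in spleen 64.4 to 93.2 CPM for T-bet- and 43.5 to 56.3 CPM for T-bet+ cDC2s, with 0 to 1 and 0 to 2 of the 6 at 3 counts or fewer. That of 6 B cell markers was 79.2 to 118 and 45.3 to 66.4 CPM, with 1 to 3 and 1 markers at that floor, and that of 6 monocyte and macrophage markers 777 to 1053 and 391 to 473 CPM, with none there. That of 6 plasma cell markers overlapped, at 129 to 419 and 294 to 384 CPM. Of the first 3 lists, 0 of 4 tested plasmacytoid, 2 of 4 tested B cell (1 higher and 1 lower) and 3 of 6 monocyte markers (all lower) were called. The median log2 fold changes of their tested markers were -0.80, 1.60 and -3.13 in that order. That of the B cell list thus ran against its sum. The part of these lists in the difference was not tested. cDC1 markers summed to 229 to 611 CPM in T-bet- and 493 to 559 CPM in T-bet+ cDC2s. Although these sums overlapped, 3 of the 6 were called lower in T-bet+ cDC2s and 0 higher, against 3.44% and 1.95% of all genes. Their median log2 fold change was -1.40 against -0.01 over all genes, and their part was not tested. Among the T-bet- libraries, the one with the most Irf8 held the least of the cDC1, plasmacytoid, B cell and monocyte markers. It held the most of the plasma cell markers, at 419 CPM against 129 and 144 CPM. In bulk samples, fewer cells with a gene and less RNA per cell cannot be told apart.

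Irf4 ran the other way. It stood at 155, 92.9 and 100.4 CPM in T-bet- cDC2s and at 339, 432 and 246 CPM in T-bet+ cDC2s of the spleen. The groups did not overlap, as was so for 27% of all genes. It was higher by 1.55 ± 0.39 on the log2 scale, and its adjusted p of 0.0516 just missed the threshold. It was 0.00746 by DESeq2 and 0.037 with the GC-related class as a term. In all, 6 of 14 alternatives called Irf4, and the adjusted p ran up to 0.18. No fit that left out 1 library called it. The other 6 members were not called. Irf2 and Irf7 were lower in all 3 T-bet+ libraries, at 91.7 to 99.7 against 113 to 181 CPM and at 148 to 158 against 163 to 235 CPM, with adjusted p-values of 0.381 and 0.347.

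In MLN none of the 8 members was called between the cDC2 subsets, nor was any of the 15298 genes tested (0% called), and 1444 genes were at an unadjusted p under 0.05. DESeq2 called 328 genes and 0 members. Irf8 stood at 251 and 470 CPM in T-bet- and at 43.0 and 236 CPM in T-bet+ cDC2s (log2 -1.39 ± 0.71, adjusted p = 0.618). Irf4 stood at 97.6 and 106 CPM in T-bet- and at 184 and 123 CPM in T-bet+ cDC2s (log2 0.56 ± 0.64, adjusted p = 0.854). Irf7 stood at 493 and 299 against 219 and 110 CPM (log2 -1.32 ± 0.58, adjusted p = 0.537). The groups did not overlap for any of these genes, as was so for 40.9% of all genes.

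Against cDC1s, both cDC2 subsets of the spleen held less Irf8 and Irf5 and more Irf4. Irf8 stood at 4030, 3863 and 2700 CPM in cDC1s, and 448 CPM was the highest value of the 6 cDC2 libraries. It fell by 5.80 ± 0.43 on the log2 scale in T-bet+ cDC2s (adjusted p = 2.15e-05) and by 3.63 ± 0.39 in T-bet- cDC2s (adjusted p = 0.000215). Irf4 stood at 5.43, 13.9 and 14.5 CPM in cDC1s. It was 30.1-fold higher in T-bet+ (adjusted p = 7.63e-05) and 10.3-fold higher in T-bet- cDC2s (adjusted p = 0.000557), and these 4 calls held in all 14 alternatives. All 3 comparisons of spleen subsets share libraries.

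Irf5 stood at 889, 813 and 798 CPM in spleen cDC1s, at 473, 518 and 573 CPM in T-bet- and at 552, 546 and 577 CPM in T-bet+ cDC2s. The step was small beside those of Irf4 and Irf8, and the cDC1 libraries lay above all 6 cDC2 libraries. Groups did not overlap for 39.9% of all genes against T-bet+ and 29.8% against T-bet- cDC2s. Irf5 fell by 0.58 ± 0.15 in T-bet+ cDC2s (adjusted p = 0.024) and by 0.67 ± 0.15 in T-bet- cDC2s (adjusted p = 0.0129) on the log2 scale. Leaving out any 1 library of the compared groups but cDC1 replicate 2 took the first adjusted p to between 0.0543 and 0.094, and leaving out T-bet- replicate 1 took the second to 0.0505. With the replicate number as a block the first adjusted p was 0.0784, which left 2 of 8 members called in T-bet+ cDC2s. Tnpo3, which overlaps Irf5 on the opposite strand, stood at 82.6 to 157 CPM in cDC1s, 59.0 to 111 CPM in T-bet- and 51.4 to 65.7 CPM in T-bet+ cDC2s, and its part was not tested. Thus 3 of 8 members were called in each of these comparisons, against 18.2% of all genes for T-bet+ (9.97% higher and 8.2% lower) and 15.9% for T-bet- cDC2s (9.65% higher and 6.2% lower). Irf1, Irf2, Irf3, Irf7 and Irf9 were not called in either.

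In MLN the errors were wider. Irf8 stood at 3183, 2071 and 2709 CPM in MLN cDC1s and fell by 4.22 ± 0.78 on the log2 scale in T-bet+ cDC2s (adjusted p = 0.0204), the 1 member of 8 called against 6.22% of all genes (4.11% higher and 2.11% lower). Without cDC1 replicate 3 the adjusted p was 0.0571, and with the GC-related class as a term 0.0786. In T-bet- cDC2s the log2 fold change was -2.83 ± 0.72 (adjusted p = 0.0631), and 0 of 8 members were called against 5.79% of all genes (4.34% higher and 1.44% lower), with 3 at an unadjusted p under 0.05. DESeq2 called Irf4 and Irf8 there. Irf4 stood at 8.64, 36.2 and 50.2 CPM in MLN cDC1s, below all 4 cDC2 libraries (40.2% and 39.8% of all genes did not overlap either), with log2 fold changes of 2.33 ± 0.58 in T-bet+ (adjusted p = 0.056) and 1.77 ± 0.57 in T-bet- cDC2s (adjusted p = 0.131). The cDC1 library with 8.64 CPM was the one low in migratory markers, and without it the T-bet+ value was 1.89 (adjusted p = 0.0166). Irf5 stood at 1079, 761 and 819 CPM in cDC1s and at 529 to 646 CPM in the 4 cDC2 libraries, and was not called. Irf7 in T-bet+ cDC2s (log2 -1.32 ± 0.54, adjusted p = 0.204) and Irf2 in T-bet- cDC2s (log2 0.68 ± 0.24, adjusted p = 0.151) were at an unadjusted p of 0.0412 and 0.0199.

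**Figure D2:**
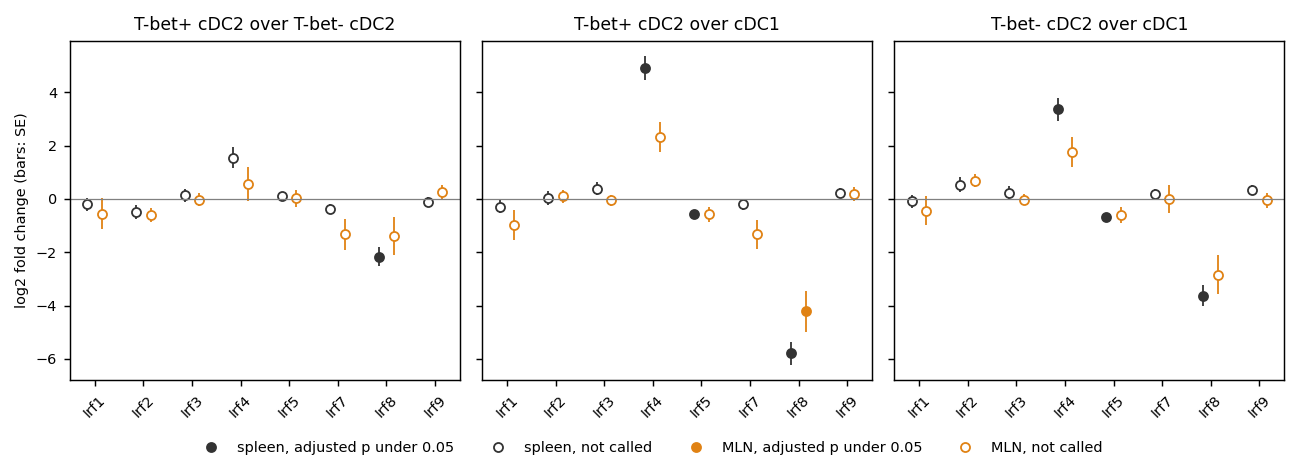
Log2 fold change with its SE for each IRF gene in the 3 comparisons of subsets (black, spleen; orange, MLN; filled, adjusted p under 0.05). Irf8 lay lowest and Irf4 highest in the panels against cDC1, and Irf8 in T-bet+ cDC2s was at -5.80 in spleen and -4.22 in MLN.

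The difference between tissues was tested in 1 fit of all 16 libraries. Irf1 was the member that stood out. It lay at 236 to 444 CPM in spleen cDC1s and at 666, 1713 and 1614 CPM in MLN cDC1s, a 4.15-fold rise (log2 2.05 ± 0.40, adjusted p = 0.00727) that held in all 12 alternatives. T-bet- cDC2s went from 279 to 323 CPM in spleen to 972 and 891 CPM in MLN, a 3.08-fold rise (adjusted p = 0.0401). That call was lost on leaving out any 1 of its 5 libraries, with adjusted p-values of 0.066 to 0.213. T-bet+ cDC2s went from 233 to 291 CPM to 324 and 982 CPM (log2 1.31 ± 0.43, adjusted p = 0.0839). Without the MLN library with 324 CPM, low in migratory markers, it was 1.94 (adjusted p = 0.0144), and without the other MLN library 0.29 (adjusted p = 0.812). No MLN library of any subset overlapped the spleen libraries of its own subset, as was so for 29.2% of all genes in cDC1s, 40.1% for T-bet- and 49.9% for T-bet+ cDC2s.

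Irf7 was also higher in MLN cDC1s, in a call that was lost on leaving out some single libraries. Spleen cDC1s held 177, 152 and 198 CPM and MLN cDC1s 670, 280 and 285 CPM, a 2.34-fold difference (adjusted p = 0.0368). Without MLN cDC1 replicate 1, the library with 670 CPM, the log2 fold change went from 1.23 to 0.62 (adjusted p = 0.147). Without spleen cDC1 replicates 1 or 2 the adjusted p was 0.117 or 0.136. In T-bet- cDC2s Irf7 stood at 163 to 235 CPM in spleen and at 493 and 299 CPM in MLN, without passing the test (adjusted p = 0.13). Thus 2 of 8 members were called in cDC1s, against 11.7% of all genes (7.75% higher and 3.93% lower). In T-bet- cDC2s 1 was called against 5.95% (4.36% higher and 1.59% lower). In T-bet+ cDC2s 0 were called against 5.09% (3.79% higher and 1.3% lower), where 1 member and 4465 of 16795 genes were at an unadjusted p under 0.05 and DESeq2 called Irf1. Irf4 stood at 5.43 to 14.5 CPM in spleen and at 8.64, 36.2 and 50.2 CPM in MLN cDC1s (log2 1.49 ± 0.51, adjusted p = 0.0698). Without the library with 8.64 CPM the log2 fold change was 1.87 (adjusted p = 0.00713). Irf8 in T-bet+ cDC2s stood at 50.6 to 76.2 CPM in spleen and at 43.0 and 236 CPM in MLN, so that its log2 difference of 1.14 ± 0.55 (adjusted p = 0.201) became 1.94 (adjusted p = 0.024) without the first and -0.57 (adjusted p = 0.654) without the second MLN library.

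Markers of mature migratory dendritic cells moved with tissue too, and 5 of the 5 tested (of 6) were higher in MLN cDC1s, 4 for T-bet- cDC2s and 3 for T-bet+ cDC2s. Within MLN, the 2 libraries lowest in these markers held the least Irf1 of all 7. Of the 3 MLN cDC1 libraries, the one lowest in the markers also held the most Irf7 and the least Irf4. The MLN T-bet+ library low in the markers held 43.0 CPM of Irf8 against 236 CPM in the other. With both libraries left out, Irf1 was called in every subset, at log2 fold changes of 2.32 in cDC1s, 1.61 for T-bet- cDC2s and 1.97 for T-bet+ cDC2s, with adjusted p-values of 9.73e-05, 0.00176 and 0.00139. The part of the migratory markers in these differences was not tested.

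**Figure D3:**
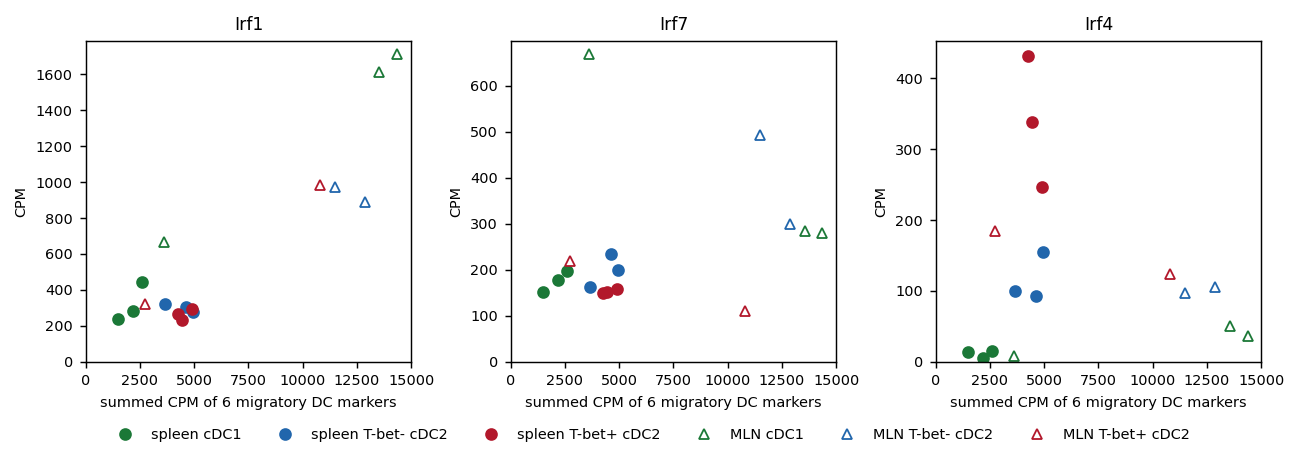
CPM of Irf1, Irf7 and Irf4 against the summed CPM of 6 migratory dendritic cell markers, 1 point per library (circles, spleen; triangles, MLN; colours as for subsets). The 5 MLN libraries above 10791 CPM of the markers held 891 to 1713 CPM of Irf1, and the other 11 held 233 to 666 CPM.

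Whether a difference between subsets itself differed between tissues was tested as an interaction. None of the 8 members was called, against 0.00595% of all genes for T-bet+ over T-bet- cDC2s, 0.0893% for T-bet+ cDC2s over cDC1s (0.0595% higher and 0.0298% lower) and 0.0357% for T-bet- cDC2s over cDC1s (0.0179% higher and 0.0179% lower). At an unadjusted p under 0.05 were 0, 2 and 1 members and 847, 1424 and 991 genes, and DESeq2 called 0 members in each. The difference of Irf4 between T-bet+ cDC2s and cDC1s was smaller in MLN than in spleen by a log2 value of -2.63 ± 0.77 (adjusted p = 0.28), and without MLN cDC1 replicate 1 it was -3.05 (adjusted p = 0.0379).

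Chromatin was compared in 177956 windows of 150 bases around peak summits, of which 166547 were tested. A window was given to an IRF gene when that gene was the closest protein-coding gene within 50000 bases, and 98 windows were. The read-through model Gm20388 spans Irf8 and takes most of its windows. With that model left out, a step chosen after the annotation was seen, the 8 loci held 130 windows, with 60 at Irf2, 35 at Irf8, 15 at Irf4, 7 at Irf1, 5 at Irf5, 3 each at Irf3 and Irf7 and 2 at Irf9. Windows of 1 locus are neighbours, some overlap, and they are no replicates of each other.

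Between T-bet+ and T-bet- cDC2s, 9 of 94 tested windows were called (5 higher and 4 lower), or 9.57%, against 6.28% of all windows (3.92% higher and 2.36% lower). With the read-through model left out these were 14 of 125 (5 higher and 9 lower). In T-bet+ cDC2s against cDC1s, 36 of 94 (15 higher and 21 lower) or 48 of 125 (15 higher and 33 lower) were called, 38.3% and 38.4%, against 23% of all windows (11% higher and 12% lower). In T-bet- cDC2s against cDC1s, 15 of 94 (6 higher and 9 lower) or 23 of 125 (7 higher and 16 lower) were called, 16% and 18.4%, against 17.9% of all windows (7.32% higher and 10.6% lower). The last share lay near the background. No window was called at Irf3, Irf5 or Irf7.

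At Irf8, the closest-gene rule gave 3 windows, with 0 called against cDC1s for either cDC2 subset and 1 lower between the cDC2 subsets. With the read-through model left out, as in the values that follow, 34 of 35 windows were tested. Every call against cDC1s in T-bet+ cDC2s was then lower, 12 in all (35.3%, against 23% of all windows). In T-bet- cDC2s 7 were lower and 1 higher (23.5%, against 17.9% of all windows). The window 32340 bases downstream of the start held 36.7 and 32.3 CPM in cDC1s, 4.07 and 4.56 CPM in T-bet- and 3.59 and 5.12 CPM in T-bet+ cDC2s. The values of the cDC2 subsets overlapped, far below those of cDC1s. Its log2 fold changes against cDC1s were -2.98 ± 0.24 in T-bet+ (adjusted p = 6.87e-17) and -2.99 ± 0.24 in T-bet- cDC2s (adjusted p = 1.96e-16), and 0.01 ± 0.29 between the cDC2 subsets. Windows at 31978, 32748, 38412 and 42914 bases followed the same order, with 3.4 to 12.7 CPM in cDC1s and 0.304 to 3.45 CPM in cDC2s, and were called in both comparisons. For T-bet- cDC2s the call was lost at 31978 bases without T-bet- replicate 2 and at 32748 bases without T-bet- replicate 1 or cDC1 replicate 2.

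The window 23673 bases downstream held 8.79 and 9.66 CPM in cDC1s, 3.08 and 4.86 CPM in T-bet- and 0.979 and 0.941 CPM in T-bet+ cDC2s. All 3 steps were called, with log2 fold changes of -2.05 ± 0.42 from T-bet- to T-bet+ cDC2s, of -1.20 ± 0.32 from cDC1s to T-bet- cDC2s and of -3.25 ± 0.39 from cDC1s to T-bet+ cDC2s. The first was lost without T-bet- replicate 2 (adjusted p up to 0.033), and the second without T-bet- replicate 1 or either cDC1 library (adjusted p up to 0.086). The window 20151 bases upstream, printed above, held 3.82 and 3.64 CPM in T-bet- cDC2s, 1.66 and 1.18 CPM in cDC1s and 0.109 and 0.105 CPM in T-bet+ cDC2s. It was the called window of largest change between the cDC2 subsets at any of the 8 loci, with a log2 fold change of -4.95 ± 0.68 (adjusted p = 8.41e-08) that held in all 12 alternatives. The T-bet+ value rests on few reads, and the size of the change with it. The order there was not that of the RNA, which was highest in cDC1s. In all, 6 Irf8 windows were lower and 0 higher when T-bet+ were compared with T-bet- cDC2s, and the one at 23673 bases was the 1 of these called in all 3 comparisons. The window 40987 bases downstream, at 4.35 to 11.5 CPM, was not called in any comparison (lowest adjusted p = 0.038).

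**Figure D4:**
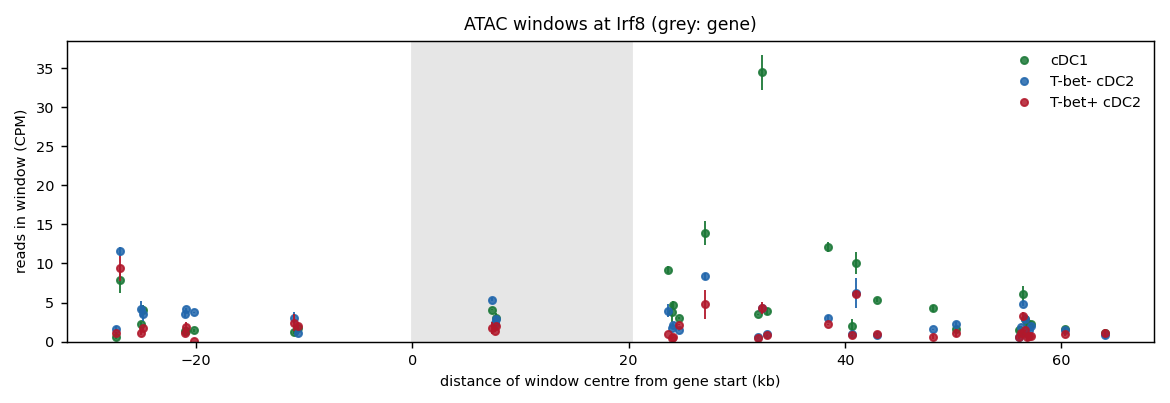
Reads in ATAC windows at Irf8 (CPM) by distance of the window centre from the gene start, as the mean of 2 libraries per subset with a line from the lower to the higher library. cDC1s reached 34.5 CPM at 32340 bases, where both cDC2 subsets lay near 4.3 CPM.

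At Irf4, with 15 windows, calls went both ways. The window 20199 bases downstream held 3.68 and 3.13 CPM in cDC1s, 9.62 and 11.7 CPM in T-bet- and 12.2 and 13.1 CPM in T-bet+ cDC2s. It was higher in both cDC2 subsets, by log2 fold changes of 1.88 ± 0.28 (adjusted p = 1.14e-07) in T-bet+ and 1.64 ± 0.29 (adjusted p = 4.98e-06) in T-bet- cDC2s, and differed by 0.24 ± 0.24 between them. A window at the end of the gene, 17823 bases from the start, held 12.4 and 11.0 CPM in T-bet+ cDC2s, 4.32 and 6.58 CPM in T-bet- cDC2s and 4.51 and 3.0 CPM in cDC1s. Its log2 fold change of 1.09 ± 0.28 between the cDC2 subsets (adjusted p = 0.00446) was lost without T-bet- replicate 1 or T-bet+ replicate 1, and the adjusted p over the alternatives ran from 0.0041 to 0.14.

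In contrast, the window 10546 bases upstream of Irf4 was least open in T-bet+ cDC2s, at 8.48 and 9.72 CPM against 14.3 and 17.9 CPM in T-bet- cDC2s and 17.1 and 19.2 CPM in cDC1s. From T-bet- to T-bet+ cDC2s the log2 change was -0.83 ± 0.23 (adjusted p = 0.00786), and 6 of 12 alternatives kept the call. Leaving out T-bet- replicate 1, T-bet- replicate 2 or T-bet+ replicate 1 ended it, with adjusted p up to 0.18. A pair of windows 16333 and 16217 bases upstream was open in cDC1s, at 2.09 to 5.23 CPM, and at 0.218 to 1.42 CPM in cDC2s, with log2 fold changes of -3.08 ± 0.64 for T-bet- cDC2s and -2.58 ± 0.59 for T-bet+ cDC2s at the farther one. Those calls were lost without cDC1 replicate 2 and, in T-bet+ cDC2s, without T-bet+ replicate 1 (adjusted p up to 0.027), and at the nearer one without cDC1 replicate 1 or, in T-bet- cDC2s, T-bet- replicate 1 (adjusted p up to 0.36). Irf4 RNA was lowest in cDC1s.

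Irf2 had most of the windows but no called difference in RNA. Of its 57 tested windows, 26 were called in T-bet+ cDC2s against cDC1s, with 9 higher and 17 lower (45.6%, against 23% of all windows). The intron window 41571 bases from the start held 8.79 and 7.97 CPM in cDC1s, 2.22 and 1.11 CPM in T-bet- and 0.326 and 0.523 CPM in T-bet+ cDC2s, with log2 fold changes of -2.35 ± 0.38 and -4.25 ± 0.47 against cDC1s. The intron window 13442 bases from the start ran the other way, at 1.9 and 1.31 CPM in cDC1s, 5.55 and 6.48 CPM in T-bet- and 9.79 and 9.83 CPM in T-bet+ cDC2s, with log2 fold changes of 1.89 ± 0.37 and 2.59 ± 0.35. The intron window 88823 bases from the start held 6.16 and 6.18 CPM in T-bet- and 1.31 and 1.25 CPM in T-bet+ cDC2s, the largest called change between these subsets at Irf2 (log2 -2.26 ± 0.37, adjusted p = 6.51e-06). It stayed called in all 12 alternatives. In T-bet- cDC2s against cDC1s the largest called change at Irf2 was in the intron window at 79863 bases, at -2.93 ± 0.43, with 6.89 and 7.84 CPM in cDC1s and 1.36 and 0.607 CPM in T-bet- cDC2s.

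**Figure D5:**
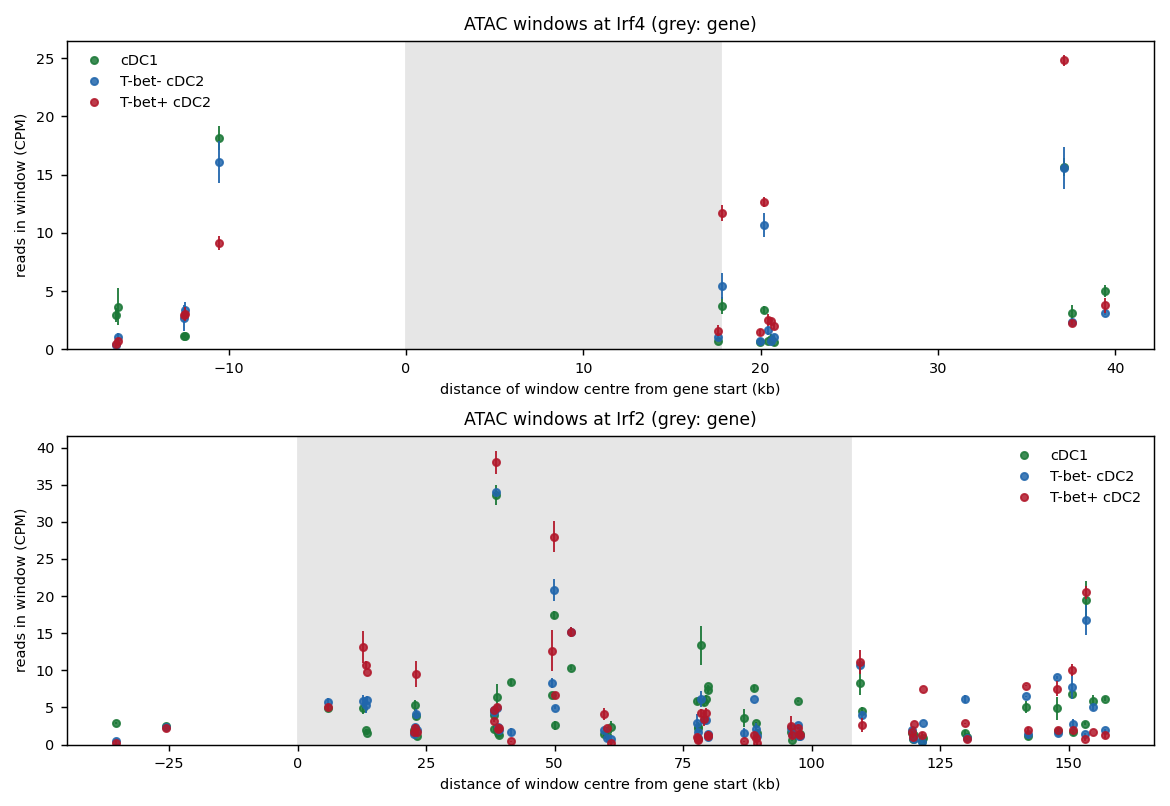
Reads in ATAC windows at Irf4 and Irf2 (CPM) by distance from the gene start, drawn as for Irf8. At Irf4 the window at 17823 bases was highest in T-bet+ cDC2s (mean 11.7 CPM) and the one at 10546 bases upstream lowest there.

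The other loci held few windows. At Irf1, 2 windows 21775 and 21201 bases upstream were higher in T-bet+ cDC2s than in cDC1s, at 6.20 and 5.86 against 1.43 and 2.74 CPM and at 15.2 and 9.31 against 4.51 and 6.14 CPM. Their log2 fold changes were 1.54 ± 0.38 and 1.20 ± 0.28, and both calls were lost without cDC1 replicate 1 (adjusted p = 0.0581 and 0.0255), the second also without T-bet+ replicate 1 (adjusted p = 0.051). Spleen Irf1 RNA did not pass the test in that comparison. At Irf9, a window 1496 bases from the start held 13.2 and 10.6 CPM in cDC1s, 6.53 and 6.07 CPM in T-bet- and 7.07 and 4.08 CPM in T-bet+ cDC2s, with log2 fold changes of -1.10 ± 0.28 (adjusted p = 0.00106) and, in T-bet- cDC2s, -0.92 ± 0.27 (adjusted p = 0.00757). The first was lost without T-bet+ replicate 2 or cDC1 replicate 1 (adjusted p up to 0.061) and the second without any 1 of its 4 libraries (up to 0.13). Irf9 RNA ran the other way without being called, with 135 to 188 CPM in cDC1s and 173 to 201 CPM in cDC2s. Irf3 was the only member with a window centred within 1000 bases of its start, as were 30.2% of 21938 protein-coding genes. That window held 9.01 to 11.7 CPM in all 6 libraries, and Irf3 RNA stood at 63.2 to 114 CPM in all 16.

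Letters were searched on both strands. An AP-1 site (TGANTCA) lay in 17 of the 130 windows (13.1%) and in 7.9% of all windows, and a PU.1 core (GAGGAAG) in 24 (18.5%) against 13.2%. GGAA and GAAA spaced by 2 bases, a PU.1-IRF element, lay in 8 windows (6.15%) against 3.19%. A pair of GAAA units spaced by 2 bases, an IRF element, lay in 3 (2.31%) against 2.39%, and a STAT site (TTCNNNGAA) in 5 (3.85%) against 4.29%. An AP-1 site with GAAA directly before it lay in 0 windows against 0.155% of all, and one with TTTC before it at a spacing of 4 bases in 0 against 0.146%. The last searches overlap that for AP-1. Of the printed windows, that upstream of Irf8 held an AP-1 site that adjoins a PU.1 core, and those at Irf4 and Irf2 held an AP-1 site each. That downstream of Irf8 held no match to these searches. GAAA units occur in it, but not at the searched spacing. The IRF elements were at 31978 bases from the Irf8 start, 16333 bases upstream of Irf4 and 38818 bases into Irf2.

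Among 16 genes for DNA-binding partners of IRFs, 3 were higher and 2 lower in T-bet+ cDC2s than in cDC1s of the spleen. Their median log2 fold change was 0.17, against 0.03 over all genes. In T-bet- cDC2s 4 were higher and 1 lower (0.06 against -0.01). Of all genes, 9.97% were higher and 8.2% lower in the T-bet+ comparison, and 9.65% and 6.2% in the T-bet- comparison. Zeb2, a repressor known from cDC2s, was higher in both at 4.95 ± 0.78 and 7.03 ± 0.86, and Ikzf3, an Ikaros family factor, at 6.81 ± 1.12 and 6.08 ± 1.11 on the log2 scale. Spib, a relative of PU.1, was higher for the T-bet- subset at 3.47 ± 0.26. The T-bet+ subset was higher too, at 2.96 (adjusted p = 0.000636) in the fit with the replicate number as a block. Batf2, an AP-1 protein that pairs with IRFs, was lower in T-bet+ cDC2s than in cDC1s (-3.08 ± 0.76) and than in T-bet- cDC2s (-3.13 ± 0.76, adjusted p = 0.0447). It was the 1 of 16 called between the spleen cDC2 subsets, against 5.38% of all genes. In MLN, Zeb2 was the 1 partner called against cDC1s, at 4.61 ± 0.55 for the T-bet+ and 5.66 ± 0.58 for the T-bet- subset. Of all genes, 6.22% and 5.79% were called there. Of 3 co-regulators named for IRF2, Irf2bp2 was higher than in cDC1s in spleen, at 2.2 ± 0.38 for the T-bet+ and 2.36 ± 0.38 for the T-bet- subset. In MLN or between the cDC2 subsets 0 of the 3 were called. Between the MLN cDC2 subsets 0 of 15298 genes were called, so no list could hold a call there. Between tissues, partners higher in MLN were 4 in cDC1s, where 2 were lower, 2 for T-bet- and 1 for T-bet+ cDC2s. Spib was at 4.22 ± 0.50 in cDC1s. Of all genes, 7.75% were higher and 3.93% lower in MLN cDC1s, 4.36% and 1.59% in T-bet- and 3.79% and 1.3% in T-bet+ cDC2s.

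Of sensors, adaptors and kinases upstream of IRF3, IRF5 and IRF7, 19 genes were tested. In T-bet+ cDC2s 5 were higher and 2 lower than in spleen cDC1s, and in T-bet- cDC2s 5 and 1 (medians 0.07 and 0.31). Of all genes, 9.97% were higher and 8.2% lower in the T-bet+ comparison, and 9.65% and 6.2% in the T-bet- comparison. In MLN the counts of the list were 4 and 1, and 3 and 1 (medians -0.21 and 0.32), with 6.22% and 5.79% of all genes called. With the replicate number as a block the T-bet+ counts in MLN were 2 and 1, without Slc15a4 and Tmem173. Tlr7, a receptor for single-stranded RNA, led in spleen at 8.07 ± 0.85 for the T-bet+ and 8.21 ± 0.86 for the T-bet- subset. Tlr3, a receptor for double-stranded RNA and here also a cDC1 marker, was in spleen at -6.89 ± 0.42 and -5.11 ± 0.38 on the log2 scale. Ddx58 (RIG-I) was higher in spleen for the T-bet- subset at 4.46 ± 0.46. It was higher for the T-bet+ subset too, at 4.54 (adjusted p = 0.00177) in the fit with the replicate number as a block. Between the cDC2 subsets of the spleen, where 3.44% of all genes were lower in T-bet+ cells, 3 of the list were lower. These were Ikbke, a kinase of IRF3 (-7.27 ± 1.21, adjusted p = 0.00883), Tlr3 (-1.78 ± 0.34) and its adaptor Ticam1 (-1.08 ± 0.25), and the median of the list was -0.34 against -0.01 over all genes. Ikbke in T-bet+ cDC2s was higher in MLN than in spleen, at 8.01 ± 1.34. Of 9 genes of interferon receptor signalling, Usp18, an interferon-induced protease known to dampen that signalling, and Jak2, a receptor kinase, had more RNA in the T-bet+ than in the other spleen cDC2s (1.07 ± 0.20 and 0.87 ± 0.21) and Ifnar1, a chain of the type I interferon receptor, was lower (-1.17 ± 0.21, adjusted p = 0.0121), with a median of 0.60 over the list. Against spleen cDC1s, 2 were higher and 3 lower in T-bet+ and 0 higher and 1 lower in T-bet- cDC2s. The shares of all genes there are those given above. Between the spleen cDC2 subsets 1.95% of all genes were higher and 3.44% lower. In MLN 0 of the 9 were called in any comparison of subsets. Between the MLN cDC2 subsets 0 of 15298 genes were called.

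Among the 3 comparisons between tissues, the median of the 22 interferon-stimulated targets was highest in cDC1s, at a log2 fold change of 1.84 against 0.01 over all genes. There 13 were higher in MLN and 0 lower, against 7.75% and 3.93% of all genes. The markers of mature migratory dendritic cells were higher in the same comparison (5 of 5 tested), and their part was not tested. Ifi44 (3.11 ± 0.68), Ifit1 (2.89 ± 0.40) and Oasl1 (2.88 ± 0.39) led. In T-bet- cDC2s 6 were higher, against 4.36% of all genes (median 0.85 against -0.04). In T-bet+ cDC2s 5 were higher, against 3.79% (median 0.73 against 0.00). Mx1 was at 4.10 ± 0.55 and 3.82 ± 0.54 and Gbp2 at 2.93 ± 0.58 and 3.93 ± 0.60. Of the 9 genes of interferon receptor signalling, 2 were higher and 1 lower in MLN cDC1s (median -0.39). In T-bet- cDC2s 3 were higher and 1 lower (median -0.08), and in T-bet+ cDC2s 2 and 0 (median -0.73). The shares of all genes higher were as above, and 1.59% and 1.3% of all genes were lower in T-bet- and T-bet+ cDC2s. Usp18 and Jak2 were higher in all 3 subsets, at 2.74 ± 0.30 and 1.45 ± 0.25 in cDC1s, and Ifngr1, a chain of the interferon gamma receptor, was lower in cDC1s (-1.31 ± 0.30) and T-bet- cDC2s (-1.45 ± 0.35). Irf9 itself was not called in any subset. Against spleen cDC1s, 8 targets were higher and 5 lower in T-bet+ cDC2s, against 9.97% and 8.2% of all genes. In T-bet- cDC2s 10 were higher and 3 lower, against 9.65% and 6.2%. Oas2 was at 6.62 ± 0.96 and 6.69 ± 0.96, Rtp4 at 6.54 ± 0.35 and 6.25 ± 0.35 and Oas1a at 5.18 ± 0.33 and 5.29 ± 0.33. Between the spleen cDC2 subsets 2 were lower in T-bet+ cells, Gbp2 (-1.37 ± 0.25) and Cxcl10 (-1.34 ± 0.27), against 3.44% of all genes. In MLN, 6 were higher and 1 lower in T-bet+ and 7 higher and 1 lower in T-bet- cDC2s than in cDC1s. Of all genes, 6.22% and 5.79% were called there. With the replicate number as a block the T-bet+ counts in MLN were 6 and 0, without Oasl1. Between the MLN cDC2 subsets 0 targets were called, and 0 of all 15298 genes. In T-bet+ cDC2s over cDC1s, Oas1a was the 1 target whose difference itself differed between tissues (-2.92 ± 0.47, adjusted p = 0.0413).

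Likeness to each member was measured as Pearson's r of log2 CPM over the 16 libraries, among 8057 genes, as a description. The libraries share subset, tissue and depth. The genes most like Irf8 were Cd8a (0.977), Plpp1 (0.972) and Pdia5 (0.964), and those most like Irf4 were Tec (0.968), Ptgs2 (0.957) and St8sia6 (0.955). Irf5 was closest to Gna15 (0.951), Cxcr3 (0.940) and Txndc15 (0.938), and Irf1 to Polr3c (0.987), Dok1 (0.980) and Epsti1 (0.979). Irf9 was closest to Igtp (0.831), Slfn8 (0.826) and Slfn2 (0.816), and Irf7 to Slc25a22 (0.874), Ly6a (0.865) and Mms19 (0.798). Irf2 was closest to Sp2 (0.902), Atg4c (0.880) and Med12 (0.855), and Irf3 to Dmap1 (0.855), Lin37 (0.841) and Spsb2 (0.816).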

How the data were processed

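RNA-seq reads were aligned by the authors to mm10 with HISAT2 2.1.0, and uniquely aligned reads were counted with Rsubread on GENCODE genes. The counts are deposited without normalization, and whether counting used the strand is not given in the sources used here. For ATAC-seq the authors used Bowtie2 2.2.5, shifted reads by 4 or 5 bases by strand, called peaks with MACS2 2.1.1.20160309 on all replicates together and deposited counts for peaks and for summit windows of 150 bases. The deposited peak score is a constant and the deposited summit column, taken to be -log10 p, was not used.

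The labels give RFP+ as T-bet+, while a sentence of the methods gives the reverse, and the labels were followed. Counts were tested with edgeR 4.0.16 (quasi-likelihood, TMM, filterByExpr, Benjamini-Hochberg) under R 4.3.3, over all features, within each tissue and over both. Genes were called at adjusted p-values below 0.05. For windows this limit was 0.01, and the size of the log2 fold change also had to exceed 0.5. Alternatives used DESeq2 1.42.0 and other settings given in the closing section. The fits were tested on simulated counts. Named windows are the called one of largest change per locus and comparison, and others (Irf4 at 20199, -10546 and -16217 bases, Irf8 at 23673, 31978, 32748, 38412, 42914 and 40987 bases, Irf2 at 13442 and 38818 bases and Irf1 at -21201 bases) were chosen after their values were seen. The 4 printed windows were also first picked after their values were seen. The IRF genes and all gene lists were chosen with earlier results of these data known. Positions come from GENCODE M21. The paper calls the ATAC-seq replicates biological. Whether they came from separate mice is not stated, so p-values there may not measure the spread between mice. A listed gene's own values are not reported here. Same-numbered libraries of T-bet+ cDC2s and cDC1s deviated together in spleen (r of 0.11 to 0.17 over 3 pairs). They did so in MLN too (0.34 and 0.41 over 2 pairs that are not independent). The fit with the replicate number as a block is given for these comparisons where it changes a call, and for Ddx58 and Spib in spleen.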

Additional observations from a re-analysis of the deposited data

How the results depend on the processing

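The 12 counts of called IRF genes and 3 counts of called windows were recomputed under 209 alternatives, of which 158 stayed within 1.5 times the reported count. In spleen, T-bet+ over T-bet- cDC2s, 2 members (Irf4 and Irf8) were called by DESeq2, without a filter on low counts, with at least 10 counts in every library, with only the 2 compared subsets, with the GC-related class as a term and with edgeR's newer quasi-dispersion estimate (chosen after seeing the data). In MLN, T-bet+ cDC2s over cDC1s gave 2 by DESeq2, with the newer estimate and without both MLN libraries low in migratory markers (chosen after seeing the data), 3 without a filter and 0 with the class term. T-bet- cDC2s over cDC1s gave 2 by DESeq2 and without a filter, 1 with only the 2 subsets and with the newer estimate, and 3 without the low-marker libraries. MLN over spleen gave 1 by DESeq2, 3 without a filter and 2 without the low-marker libraries in T-bet+ cDC2s, and 2 without a filter and 2 without those libraries in T-bet- cDC2s. The interaction for T-bet+ cDC2s over cDC1s gave 2 without a filter. The stricter threshold (adjusted p under 0.001, absolute log2 fold change over 1) left 1 window between the cDC2 subsets and 22 in T-bet+ cDC2s over cDC1s, DESeq2 gave 1, 19 and 9 over the 3 comparisons, whole peaks gave 23 in T-bet+ cDC2s over cDC1s, every window within 10000 bases gave 9 in T-bet- cDC2s over cDC1s, and leaving out the read-through model (chosen after seeing the data) gave 14 between the cDC2 subsets and 23 for the T-bet- subset against cDC1s.

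Leaving out 1 library at a time gave 0 to 1 members (spleen, T-bet+ over T-bet-), 2 to 3 (both spleen comparisons with cDC1s), 0 to 2 (MLN, T-bet+ over cDC1), 0 to 2, 0 to 0 and 1 to 2 (MLN over spleen in the T-bet+ and T-bet- subsets and in cDC1s), 0 to 1 (interaction, T-bet+ over cDC1), and 1 to 8, 22 to 28 and 8 to 14 windows. Of single genes, 4 log2 fold changes turned. Irf1 between MLN cDC2 subsets ran from -1.54 (without MLN T-bet+ replicate 2) to 0.10 (without replicate 1). Irf8 ran from -0.57 to 1.94 between tissues in T-bet+ cDC2s, and from -0.94 to 1.58 and -0.15 to 2.36 in the interactions with T-bet- cDC2s and with cDC1s, among the alternatives that leave out 1 library, lowest without MLN T-bet+ replicate 2 and highest without replicate 1. The Irf2 window at 22880 bases was at 0.30 by whole peaks. The cause was not tested. Counts over all features moved by over 1.5 times too. Under alternatives other than leaving out 1 library, the 774 genes between the spleen cDC2 subsets ran from 356 to 1521 (DESeq2 1413), the 0 in MLN from 0 to 554, the 952 and 885 against MLN cDC1s from 409 to 2257 and 515 to 2012, the 855, 1000 and 1961 between tissues (T-bet+, T-bet-, cDC1) to 2875, 2435 and 3513, the interactions of 1, 15 and 6 to 186, 475 and 261, and the 10460, 38316 and 29773 windows down to 4844, 23893 and 17142. Leaving out 1 library took the 774 to between 307 (T-bet+ replicate 2) and 1257 (T-bet- replicate 3), 952 down to 369 (MLN T-bet+ replicate 1), 885 to 177 (MLN T-bet- replicate 1), 2279 to 1464 (cDC1 replicate 2), 855, 1000 and 1961 to 36 (MLN T-bet+ replicate 2), 186 (MLN T-bet- replicate 1) and 535 (spleen cDC1 replicate 2), the interactions to 0 to 3, 2 to 113 and 1 to 28, and the windows to as few as 5580, 25037 and 17646.

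Same-numbered libraries correlated at 0.11 to 0.17 for spleen T-bet+ cDC2s and cDC1s, which counts as pairing. Those of MLN T-bet+ cDC2s and cDC1s correlated more, at 0.34 and 0.41 over 2 pairs. Replicate 1 of both was the library low in migratory markers. Deviations from the mean of a group of 2 libraries mirror each other, so pairs with such a group are not independent. Other spleen pairs ran from -0.49 to 0.015, other MLN pairs from -0.088 to 0.086 and ATAC-seq pairs from -0.037 to 0.019. These others were not taken as paired. The titles number the MLN T-bet- libraries as replicates 1 and 2, and this was followed, but their names carry 2 and 3. Matched by the names, T-bet- replicate 1 correlated at 0.088 with T-bet+ replicate 2 and at 0.036 with cDC1 replicate 2. T-bet- replicate 2 correlated at 0.15 with cDC1 replicate 3. The MLN fits with the block used the title numbers, and a block by the names was not fitted. With the replicate number as a block, Irf8 between the spleen cDC2 subsets was at -2.11 (adjusted p = 0.0394), Irf4 at 1.51 (adjusted p = 0.143) and Irf5 was no longer called against cDC1s (adjusted p = 0.0784 and 0.0523). In the paired spleen comparison the block also ended the calls of Id2, Slc15a4, Traf3, Ifnar1, Nlrc5 and Psmb9 and added Ifi44. In MLN T-bet+ cDC2s over cDC1s it took 952 called genes to 539 and kept Irf8. The calls of Slc15a4, Tmem173 and Oasl1 ended there with the block. The block also ended the calls of Batf2, Tlr3, Ticam1, Ifnar1, Jak2, Gbp2 and Cxcl10 between the spleen cDC2 subsets. With 2 libraries in the smallest groups, MLN and ATAC-seq limit what can be called.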

Other observations

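Several IRF genes overlap other gene models, and reads there could be counted on either. Gm20388, on the same strand as Irf8, spans all 20337 bases of it. It is not among the counted genes under that symbol, and its part in the Irf8 counts was not tested. Gm17334, on the strand opposite to Irf1, shares 907 bases with it and held 3 to 16 counts per spleen library and 8 to 89 per MLN library, against 5722 to 44315 counts of Irf1 itself. Irf5 shares 1045 bases with Tnpo3 and Irf3 shares 1065 bases with Bcl2l12, both on the opposite strand. Tnpo3 stood at 81.1 to 135 CPM in MLN and at 51.4 to 157 CPM in spleen. Bcl2l12 stood at 7.79 to 17.7 CPM in MLN and at 13.5 to 31.8 CPM in spleen, against 63.2 to 114 CPM of Irf3. Rnf31, on the same strand as Irf9, shares 123 bases with it and held 42.6 to 139 CPM in MLN and 19.4 to 71.6 CPM in spleen.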
